A study of Mus musculus with 72 samples.

Results

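The direction of a cross decides which strain's chromosome comes from the mother. Here 48 of the 72 libraries of a mouse imprinting study were compared by that direction: all 48 libraries of one of the 2 sequencing lanes, grouped by their cross label. They came from 8 female F1 mice, 4 per cross, with 6 libraries each. In BL6 x Cast mice the mother was BL6 (C57BL/6) and the father CAST (Mus musculus castaneus); mice 1 and 2 were old (101 weeks) and mice 7 and 8 young (9 weeks). In Cast x BL6 mice the mother was CAST and the father BL6; mice 3 and 4 were old (103 weeks) and mice 5 and 6 young (8 weeks). The libraries were made by IMPLICON, PCR of bisulfite-converted DNA across chosen regions with deep sequencing of the products. DNA came from cerebellum, hippocampus, hypothalamus, nucleus accumbens, prefrontal cortex and, as a non-brain organ, lung. The study asked how imprinting fares in the ageing brain. The ages of the crosses differed by 1 or 2 weeks within each age class, and this cannot be told apart from the cross. Litters were not given in the sources used here, so p-values measure the spread between these mice.

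Imprinted genes are expressed from 1 parental copy. Their control regions are methylated at CpG dinucleotides on the egg-derived or the sperm-derived chromosome, and the mark is kept in body cells after it is set in the germ line. In F1 mice of inbred strains, DNA variants assign each read to a parental genome. A single cross cannot separate parental origin from strain, because the maternal allele always has the same sequence; reciprocal crosses can. In the table the alleles are called genome 1 and genome 2. The first is read here as BL6, so the maternal allele was genome 1 in BL6 x Cast mice and genome 2 in Cast x BL6 mice.

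The table held 224 CpGs in 16 regions, and 10 regions gave enough calls to test. A call is 1 CpG read on 1 molecule copy as methylated or not. All 7 imprinted regions tested are known to be methylated on the maternal allele: Commd1/Zrsr1 (chr11:22971952-22972139, GRCm38), where the paternally expressed retrogene Zrsr1 lies inside the copper metabolism gene Commd1; Gnas (chr2:174295708-174295954), the locus of a G protein alpha subunit; H13/Mcts2 (chr2:152686786-152686970), where the paternally expressed retrogene Mcts2 lies inside H13, which encodes an intramembrane protease; Impact, a regulator of translation; Mest (chr6:30737609-30737809), a paternally expressed hydrolase-like gene; Plagl1 (chr10:13091188-13091361), a zinc finger transcription factor; and Snrpn (chr7:60005043-60005284), a splicing protein gene. The 3 non-imprinted regions were at Klf4 (chr4:55530381-55530595), a transcription factor gene, Sox2ot (chr3:34649361-34649591), a noncoding RNA gene over Sox2, and Prickle1 (chr15:93500632-93500761), a planar polarity gene. Dlk1-Dio3 and Igf2-H19, which are methylated on the paternal allele, were too thinly covered for the tests.

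The DNA read in these regions is shown for 3 promoters that overlap a measured region, because the single-CpG results refer to it. The sequences are RefSeq windows of GRCm38.p6, of 300 bases each, 5′ to 3′ on the gene's strand. Capitals mark the CpGs whose methylation was measured; of the last one in the Zrsr1 window, the sequence ends after the C. The Zrsr1 window (chr11:22971755-22972054, + strand) holds 7 of the 13 CpGs analysed in Commd1/Zrsr1. The Mcts2 window (chr2:152686898-152687197, + strand) holds 6 of the 18 of H13/Mcts2, and its last capitals are the CpG at position 152686958. The Snrpn window (chr7:60005150-60005449, - strand) holds 6 of the 15 of Snrpn, and its first capitals are the CpG at position 60005284.
Zrsr1: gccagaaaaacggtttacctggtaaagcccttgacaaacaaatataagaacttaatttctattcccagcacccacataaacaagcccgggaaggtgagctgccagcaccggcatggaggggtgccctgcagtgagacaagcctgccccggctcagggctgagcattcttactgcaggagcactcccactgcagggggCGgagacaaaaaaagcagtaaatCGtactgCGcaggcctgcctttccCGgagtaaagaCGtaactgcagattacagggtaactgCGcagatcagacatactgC
Mcts2: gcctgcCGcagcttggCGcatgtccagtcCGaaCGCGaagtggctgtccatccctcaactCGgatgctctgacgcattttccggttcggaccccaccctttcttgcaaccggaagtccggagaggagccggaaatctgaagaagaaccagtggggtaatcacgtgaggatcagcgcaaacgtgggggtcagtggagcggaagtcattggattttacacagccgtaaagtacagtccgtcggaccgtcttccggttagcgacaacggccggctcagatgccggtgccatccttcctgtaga
Snrpn: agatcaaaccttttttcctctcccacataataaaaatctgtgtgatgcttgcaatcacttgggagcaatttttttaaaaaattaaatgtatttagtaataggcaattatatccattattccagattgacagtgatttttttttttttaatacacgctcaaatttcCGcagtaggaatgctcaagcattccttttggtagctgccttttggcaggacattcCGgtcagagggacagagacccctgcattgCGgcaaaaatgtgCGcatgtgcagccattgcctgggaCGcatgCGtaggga

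Depth ranged from 9785 to 165506 calls per library in BL6 x Cast mice and from 376 to 461238 in Cast x BL6 mice. A CpG was used with at least 50 calls on the allele, a region's level was the mean over its CpGs, and a mouse's level the mean over its tissues. Mouse 8 (BL6 mother, young) was shallow: a median of 7.5 region-alleles per library passed, against medians of 16 to 18.5 in the other 7 mice. The hippocampus library of mouse 3 (CAST mother, old) had no CpG at the minimum. The prefrontal cortex library of mouse 5 (CAST mother, young) stood apart from the other prefrontal cortex libraries. In it the maternal Gnas level was 2.65% (other libraries 76.8 to 87.4%, n = 7) and the paternal Plagl1 level 62.8% (others 1.31 to 4.82%, n = 5). Its H13/Mcts2 levels were 46.1% maternal (others 79.9 to 93.2%) and 29.4% paternal (others 4.62 to 13.8%). Genome 1 took nearly all of its 50631 Klf4 calls (others 63.3 to 71.9%) and 3.01% of its Commd1 calls (others 39.2 to 68.4%). Several differences depended on this library or on mouse 8, and the values without them stand beside the differences most affected. Whether this library holds the labelled tissue was not tested.

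The methylated genome switched with the mother. Over the 7 imprinted regions, genome 1 was the more methylated in every pair of a region and a library from BL6 x Cast mice, by a median of 79.6 percentage points. In Cast x BL6 mice genome 2 was the more methylated in all such pairs but 1, by a median of 81.0 points. That pair was Gnas in the mouse 5 cortex library, with 9.13% on genome 1 and 2.65% on genome 2. Maternal minus paternal differences, averaged over the crosses, passed the threshold at all 7 imprinted regions and at no control, which is 7 of 10 regions or 70% (limma, Benjamini-Hochberg adjusted p from 9.25e-09 to 0.00116). They ran from 65.5 points at Mest (95% interval 61.3 to 69.8) to 86.2 at Plagl1 (82.8 to 89.6). The intervals at Klf4, Prickle1 and Sox2ot covered 0, with differences of -0.12, -0.18 and 0.25 points.

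**Figure D1:**
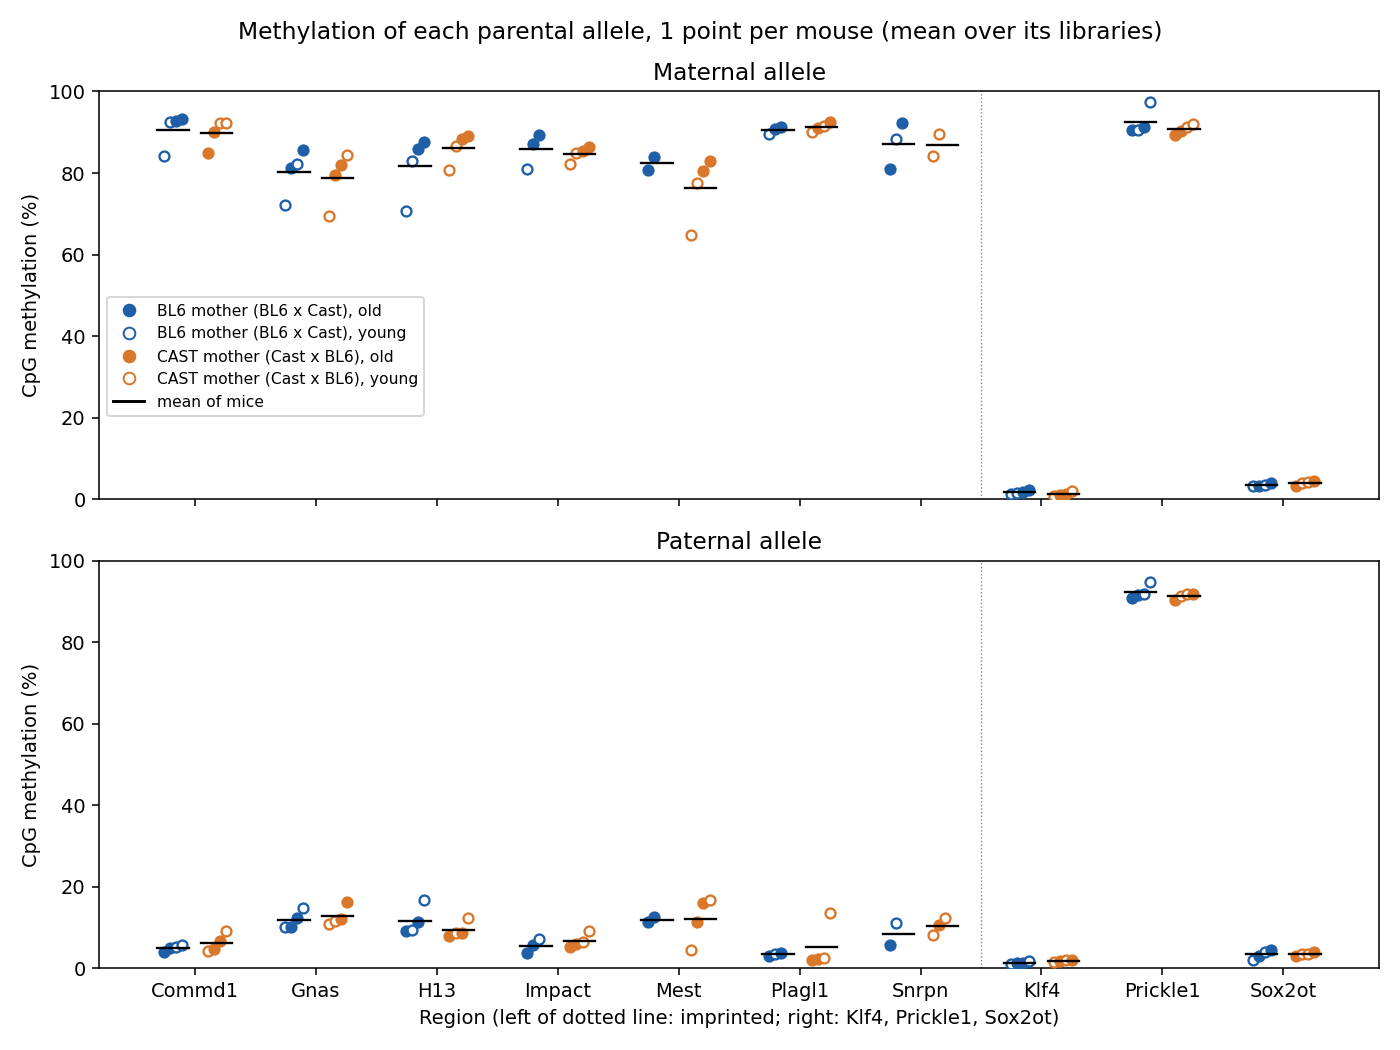
CpG methylation (%) of the maternal (top) and paternal (bottom) allele in 10 regions, with 1 point per mouse (mean over its libraries), filled for old and open for young mice, BL6 mother left and CAST mother right, and bars at the means. The 7 imprinted regions sit high on the maternal and low on the paternal allele in both crosses; the lowest BL6 mother point on the maternal H13 allele is mouse 8 at 70.6%.

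For an allele of given parental origin, no difference between the crosses was detected. Of 20 region-alleles tested for BL6 mother minus CAST mother, 0 passed an adjusted p of 0.05 (0%; limma with age as covariate), and 0 had an unadjusted p under 0.05. The edgeR quasi-likelihood test on the calls also passed 0 of 20, with 1 at an unadjusted p under 0.05. The differences ran from -4.46 to 2.34 points, and the median width of their 95% intervals was 7.75 points. The lowest adjusted p was 0.914. For 4 mice against 4 the exact two-sided permutation test can give 0.0286 at the smallest; the lowest seen over the 20 was 0.0571. The ranges of the crosses overlapped in 20 of 20 region-alleles.

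The H13/Mcts2 region held both ends of that range. Its maternal allele had 87.7, 86.0, 82.9 and 70.6% in BL6 x Cast mice 1, 2, 7 and 8, against 89.1, 88.5, 80.8 and 86.6% in Cast x BL6 mice 3, 4, 5 and 6. The low value was that of the shallow mouse 8, and the other 3 BL6 mother values lay within the range of the CAST mother mice. The low end of that range, mouse 5 at 80.8%, included its prefrontal cortex library at 46.1%. Mice 2 and 7 lay within the range only through mouse 5, as mice 3, 4 and 6 had 86.6% or more. The means were 81.8 ± 7.71% with a BL6 mother and 86.2 ± 3.77% with a CAST mother (SD, n = 4 each), a difference of -4.46 points (95% interval -11.5 to 2.63). Without mouse 8 it was -1.51 points, and without the prefrontal cortex library of mouse 5 it was -6.20. Without both it was -2.90 points (limma adjusted p 0.272). The paternal allele had 9.23, 11.4, 9.41 and 16.8% in mice 1, 2, 7 and 8, against 7.92, 8.64, 12.3 and 8.60% in mice 3, 4, 5 and 6. Mice 8 and 5 were the highest of their crosses, and the difference of 2.34 points (-1.95 to 6.63) came to 0.80 without mouse 8 and 3.19 without the prefrontal cortex library of mouse 5.

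Commd1/Zrsr1 had maternal levels of 90.7 ± 4.30% with a BL6 mother and 89.9 ± 3.50% with a CAST mother (n = 4 each). Mouse 8 at 84.2% was again the lowest of BL6 x Cast, and the other 3 lay between 92.5 and 93.3%. In Cast x BL6 mice the lowest was mouse 4 at 84.9%, and the other 3 lay between 90.0 and 92.3%. The paternal Commd1/Zrsr1 levels were 5.03 ± 0.71% and 6.24 ± 2.14%, with the highest, 9.09%, in mouse 5. The intervals of the cross differences were -5.82 to 7.43 points for the maternal and -3.92 to 1.51 for the paternal allele. The maternal difference was 0.81 points, and 3.41 without mouse 8.

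Gnas had maternal levels of 85.6, 81.2, 82.2 and 72.1% in mice 1, 2, 7 and 8 (BL6 mother), against 82.0, 79.5, 69.4 and 84.4% in mice 3, 4, 5 and 6 (CAST mother). Each cross held 1 mouse at or below 72.1%, and these were mouse 8 and mouse 5. The difference was 1.43 points (-7.69 to 10.6), 3.68 without mouse 8 and -1.91 without the prefrontal cortex library of mouse 5, so the sign turned on 1 library. The paternal allele averaged 11.8 ± 2.23% with a BL6 mother and 12.8 ± 2.44% with a CAST mother, a difference of -0.93 points that was -2.29 without mouse 8.

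Impact, on chromosome 18, and Plagl1 had no value in mouse 8. The maternal Impact allele averaged 85.8 ± 4.4% with a BL6 mother (n = 3) and 84.7 ± 1.80% with a CAST mother (n = 4), and the paternal allele 5.58 ± 1.77% and 6.76 ± 1.75%. The maternal Plagl1 levels lay close together, 90.6 ± 0.96% (n = 3) with a BL6 mother and 91.3 ± 1.07% (n = 4) with a CAST mother, and the interval of its difference was -2.88 to 0.98 points. Its paternal allele had 3.06, 3.85 and 3.57% in mice 1, 2 and 7, against 2.01, 2.43, 13.7 and 2.68% in mice 3, 4, 5 and 6. The value of mouse 5 rested on its prefrontal cortex library; the fitted difference was -1.10 points with it and 0.87 without. With a minimum of 20 calls mouse 8 entered, and the maternal Plagl1 difference became -7.21 points, still with an adjusted p of 0.826.

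Mest and Snrpn had the fewest mice and the widest intervals. The maternal Mest allele had 80.8 and 84.0% in mice 1 and 2 (BL6 mother, both old), against 82.8, 80.4, 64.9 and 77.6% in mice 3, 4, 5 and 6 (CAST mother). With no young BL6 x Cast mouse, the age-adjusted difference of 0.81 points (-11.6 to 13.3) rested on the 4 old mice. The maternal Snrpn allele averaged 87.2 ± 5.69% (n = 3) and 86.9 ± 3.74% (n = 2), and its difference had an interval of -16.7 to 19.5 points. Both CAST mother mice with a value, 5 and 6, were young. The age-adjusted Snrpn difference of 1.40 points thus set mouse 7 alone (1 library, 88.3%) against them. The paternal Snrpn allele averaged 8.49 ± 3.73% (n = 2) with a BL6 mother and 10.4 ± 2.12% (n = 3) with a CAST mother.

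The control regions differed between the crosses by at most 1.67 points, at the maternal Prickle1 allele, and this was 0.21 points without mouse 8. Sox2ot averaged 3.50 ± 0.36% with a BL6 mother and 3.98 ± 0.54% with a CAST mother on the maternal allele (n = 4 each), and 3.45 ± 1.05% and 3.52 ± 0.44% on the paternal one. Prickle1, methylated on both alleles, averaged 92.4 ± 3.27% with a BL6 mother and 90.8 ± 1.11% with a CAST mother on the maternal allele, and 92.2 ± 1.74% and 91.3 ± 0.62% on the other. Mouse 8, with 1 maternal and 3 paternal library values there, was the highest of the 8 mice on both alleles, at 97.3 and 94.8%. It had no value at the last Prickle1 CpG, which averaged 50.7% maternal and 50.6% paternal in the 3 other BL6 x Cast mice. The levels of mouse 8 are thus means over other CpGs than theirs. The paternal Prickle1 difference was 0.94 points with mouse 8 and 0.16 without, and the paternal Sox2ot difference -0.07 with mouse 8 and 0.34 without.

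The reciprocal design also gave the strain of the allele with parental origin held fixed. Genome 1 minus genome 2, averaged over the maternal and paternal positions, passed the threshold in 0 of 10 regions (0%; limma, 0 at an unadjusted p under 0.05, and with edgeR 0 of 10 and 1 unadjusted). The values ran from -3.40 points at H13/Mcts2 (-9.04 to 2.24) to 1.26 at Mest (-2.99 to 5.50). Genome 1 was the higher in 8 of 10 regions, by 0.07 to 1.26 points, but in 3 of 10 with a minimum of 20 calls, where Plagl1 stood at -5.54 points, and in 2 of 10 with calls pooled per mouse. Without mouse 8 the values were -1.15 at H13/Mcts2, 2.98 at Gnas, 2.25 at Commd1/Zrsr1 and 0.02 at Prickle1. Without the prefrontal cortex library of mouse 5, Gnas and Plagl1 turned to -0.42 and -0.75 points. The narrowest interval was that of Klf4, 1.58 points wide, and the widest that of Snrpn, 23.3 points wide with 2 mice per cross.

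Klf4 had the smallest exact p of the strain comparison, and its levels are near 0 on every allele. Genome 1 had 2.26, 1.87, 1.59 and 1.27% as the maternal allele of mice 1, 2, 7 and 8, and 1.89, 1.97, 1.68 and 1.94% as the paternal allele of mice 3, 4, 5 and 6. Genome 2 had 1.40, 1.31, 1.71 and 1.06% as the paternal allele of mice 1, 2, 7 and 8, and 0.95, 1.27, 0.85 and 1.97% as the maternal allele of mice 3, 4, 5 and 6. Genome 1 was the higher by 0.49 points (-0.30 to 1.28), with an exact two-sided permutation p of 0.0571 (0.571 adjusted over 10 regions) and a limma adjusted p of 0.813. In prefrontal cortex alone the difference was 1.64 points (-0.47 to 3.75), from mice with a value on both alleles. Over all libraries with a value, the means were 2.58% (n = 4) and 3.42% (n = 4) on genome 1 and 1.31% (n = 3) and 1.12% (n = 3) on genome 2. The 3.42% includes the mouse 5 library at 4.53%, which had no genome 2 level there. The limma adjusted p of the difference was 0.467 in the fit per tissue and 0.0336 in the fit of all libraries with the mouse as a replicate block.

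Averaged over both alleles, the cross made no detectable difference either: 0 of 10 regions passed (0%; limma, 0 unadjusted; edgeR was not run on this contrast), with values from -1.06 points at H13/Mcts2 to 1.31 at Prickle1. Both ends rested on mouse 8: without it they were -0.36 points at H13/Mcts2 and 0.18 at Prickle1. The Snrpn values of the crosses, 2 mice each, did not overlap, and this was 1 of 10 regions.

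**Figure D2:**
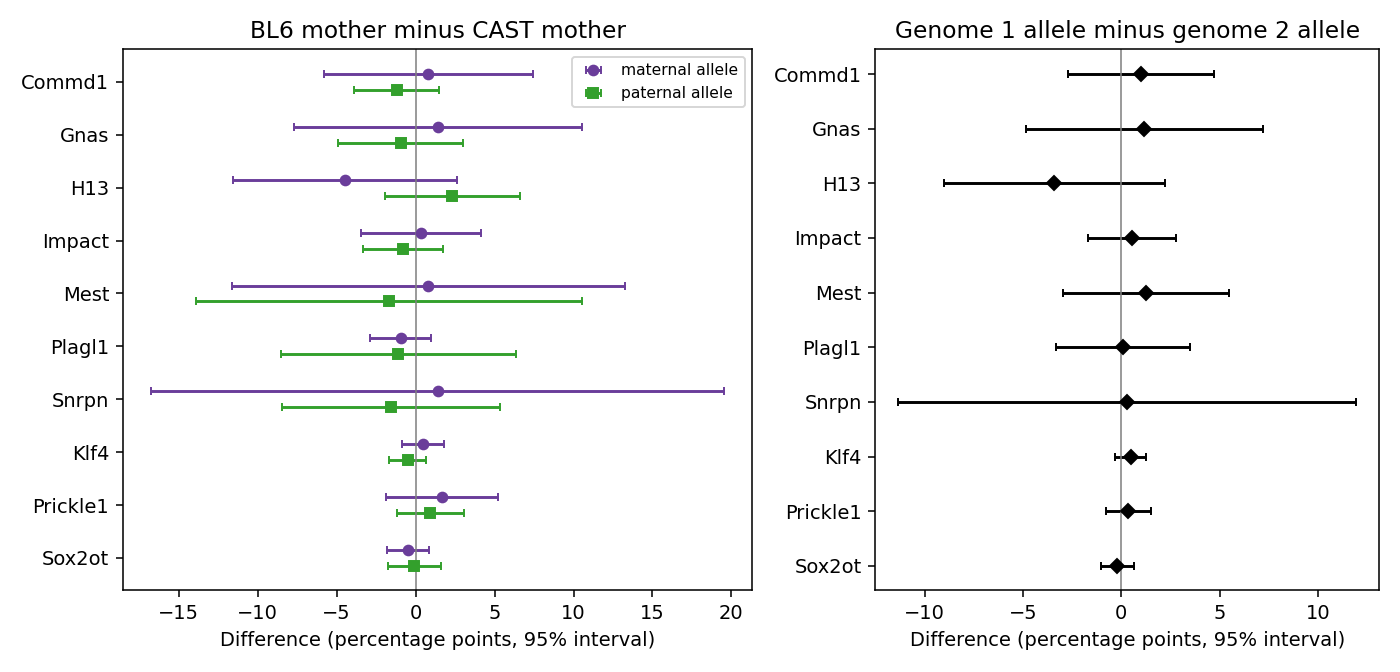
Differences in methylation (percentage points) with 95% intervals from limma, by region: left, BL6 mother minus CAST mother on the maternal (circles) and paternal (squares) allele; right, genome 1 minus genome 2. Every interval crosses 0; the H13 maternal value of -4.46 lies lowest on the left.

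No dependence of the cross difference on age was detected. The difference of the cross effect between old and young mice passed the threshold for 0 of 17 region-alleles (0%; limma, 0 at an unadjusted p under 0.05, lowest adjusted p 0.724; no other tool was run). The largest was that of the maternal Commd1/Zrsr1 allele, 9.49 points. In old mice its BL6 mother values averaged 93.0% and its CAST mother values 87.4%; in young mice they averaged 88.4% with a BL6 mother, mouse 8 included, and 92.3% with a CAST mother. Each of these means had 2 mice.

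By tissue, 0 of 102 region-alleles passed for the cross (0%; limma, 5 at an unadjusted p under 0.05; edgeR 0 of 106, 7 unadjusted) and 0 of 49 regions for the strain of the allele (0%; limma, 2 unadjusted). The median size of the cross difference was 1.33 points. Maternal minus paternal differences passed in 31 of 49 (63.3%), and no control was among them. The largest cross difference, 17.2 points for maternal Gnas in prefrontal cortex, was that of the mouse 5 library: the CAST mother values were 77.9, 84.2, 2.65 and 87.4% in mice 3, 4, 5 and 6, and the BL6 mother values lay between 76.8 and 85.2%. Without that library the maternal Gnas difference was -2.92 points.

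Cerebellum had the largest median difference of the 6 tissues, 2.58 points. The maternal H13/Mcts2 allele there had 93.5, 83.1, 77.3 and 75.9% in mice 1, 2, 7 and 8 (BL6 mother), against 94.6, 89.7, 91.0 and 91.6% in mice 3, 4, 5 and 6 (CAST mother). All but mouse 1 lay below every CAST mother mouse. The difference was -9.29 points (-16.8 to -1.79, limma adjusted p 0.689). Without mouse 1 it was -12.5 points and passed, with a limma adjusted p of 0.0316. It did not pass when any of the other 7 mice was left out. The paternal allele went the other way, at 10.3% with a BL6 mother and 5.63% with a CAST mother (4.64 points, 0.71 to 8.57). The strain difference in cerebellum was -6.97 points (-12.6 to -1.35, limma adjusted p 0.467), and -9.30 with an adjusted p of 0.0197 without mouse 1. Of the refits with 1 mouse left out, only that one passed for it. Within each cross, maternal Gnas ordered the mice in cerebellum as H13/Mcts2 did, with 92.1, 79.7, 75.7 and 68.4% in mice 1, 2, 7 and 8, against 88.7, 85.1, 86.7 and 88.6% in mice 3, 4, 5 and 6. Its difference was -8.31 points (-18.1 to 1.47). The cerebellum libraries of mice 2, 7 and 8 had 7264, 8380 and 4025 calls on the maternal H13/Mcts2 allele, against 28978 in mouse 1 and 14867 to 124641 in the CAST mother mice; the part of depth in the difference was not tested.

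In lung the paternal H13/Mcts2 allele averaged 20.5% with a BL6 mother and 14.4% with a CAST mother (6.10 points, 0.36 to 11.8, adjusted p 0.779), and the maternal allele 79.1 and 86.8% (-7.69 points, -17.7 to 2.31). The paternal values were 22.2, 23.5, 12.4 and 23.8% in mice 1, 2, 7 and 8, against 17.1, 18, 10.4 and 12.0% in mice 3, 4, 5 and 6, so the crosses overlapped through mouse 7. Over the 6 tissues the maternal H13/Mcts2 allele was lower with a BL6 mother in 5 and the paternal allele higher in 5. The same mice enter all 6.

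The other largest values per tissue were as follows. In hypothalamus the maternal Mest difference was 5.84 points (1.29 to 10.4) after adjustment for age, from means of 86.4% (n = 2, both old) and 71.6% (n = 3), and the maternal Commd1/Zrsr1 difference 4.68 (-9.47 to 18.8). In hippocampus the maternal Commd1/Zrsr1 difference was 4.67 points (-1.02 to 10.4) and the maternal Snrpn difference 4.44 (-17.9 to 26.8). After adjustment for age, each of these 2 hippocampus values set 1 young BL6 mother mouse against 2 young CAST mother mice. In nucleus accumbens the maternal H13/Mcts2 difference was -6.12 points (-23.2 to 10.9) and the maternal Commd1/Zrsr1 difference 4.44 (-2.37 to 11.3). In prefrontal cortex the maternal Impact difference was -9.14 points (-21.4 to 3.16). None of these passed, with adjusted p from 0.689 to 0.924. The cross difference of a brain area minus that of lung passed in 0 of 80 tests (0%; limma, 6 unadjusted; no other tool was run). The lowest adjusted p was 0.198, for the paternal H13/Mcts2 allele of nucleus accumbens, -4.04 points (-6.08 to -2.01).

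The order of the CpGs along a region was similar in both crosses on 6 of the 7 maternal imprinted alleles, though not always their level. On the maternal Gnas allele the CpGs ran from 74.1 to 85.2% with a BL6 mother and from 71.7 to 84.3% with a CAST mother, and were higher in the upstream CpGs. The paternal Gnas allele ran from 8.43 to 17.8% and from 8.63 to 20.1%, lower in the upstream CpGs. The maternal Impact allele dipped at 1 CpG to 62.3 ± 8.47% (n = 3) with a BL6 mother and 64.0 ± 3.32% (n = 4) with a CAST mother, while its highest CpGs reached 94.2 and 96.1%. Across CpGs, which share molecules and are not replicates, the correlation of the BL6 mother and CAST mother means was r = 0.997 for maternal Gnas (10 CpGs) and 0.946 for maternal Impact (12 CpGs), and between these and 0.999 for maternal Commd1/Zrsr1, H13/Mcts2, Mest and Plagl1. It was 0.560 for maternal Snrpn (15 CpGs). The maternal H13/Mcts2 correlation includes its last CpG, at 47.3 and 48.8%, where the other CpGs had 79.4% or more. The correlation without that CpG was not computed. The largest gap between the crosses at 1 CpG was 12.4 points on the maternal Mest allele, 9.61 on maternal Impact, and 7.77 and 8.55 on maternal and paternal Snrpn. These gaps are not adjusted for age. The Mest gap set 2 old BL6 x Cast mice against 4 Cast x BL6 mice, 2 of them young. Over the region, old mice averaged 82.4% with a BL6 mother and 81.6% with a CAST mother, and the young Cast x BL6 mice 71.2%. The last value rested on mouse 5 (64.9%, 2 libraries, with hypothalamus at 53.6%) and mouse 6 (77.6%, 1 library). The part of age in the gap was not tested.

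The last H13/Mcts2 CpG, the final capitals of the Mcts2 window, did not follow the imprint. Its maternal and paternal levels were 47.3 ± 1.07% and 48.6 ± 1.17% with a BL6 mother, against 48.8 ± 0.73% and 48.7 ± 1.63% with a CAST mother (n = 4 each). The last Prickle1 CpG, at position 93500761, had 50.7 ± 0.28% and 50.6 ± 1.61% (n = 3) with a BL6 mother, against 49.0 ± 1.80% and 52.8 ± 3.64% (n = 4) with a CAST mother. Both stood near 50% on each genome and from each parent.

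No single CpG passed for the cross or the strain: 0 of 258 CpG-alleles for the cross (0%; limma, 4 at an unadjusted p under 0.05), 0 CpGs for the strain (0%; 2 unadjusted) and 0 over both alleles (0%; 1 unadjusted); no other tool was run. Maternal minus paternal differences passed at 88 CpGs (68.2%). The largest cross differences after adjustment for age were on maternal alleles. The first capitals of the Snrpn window had 85.8 ± 4.63% (n = 3) with a BL6 mother and 78.0 ± 1.57% (n = 2) with a CAST mother, an age-adjusted difference of 9.93 points (-2.29 to 22.1). The Snrpn CpG at position 60005043 had 84.9% and 80.7% (8.04 points, -5.98 to 22.1). Both CAST mother mice with Snrpn values here were young. These 2 age-adjusted differences thus set mouse 7 alone, with 1 library, against mice 5 and 6. The third Impact CpG had 78.3 ± 4.77% (n = 3) and 68.7 ± 10.3% (n = 4), a difference of 7.81 points (-2.94 to 18.6). The largest strain differences were at Snrpn positions 60005112 (6.20 points, -22.1 to 34.5) and 60005284 (5.33, 0.58 to 10.1), with 2 mice per cross, and at the same Impact CpG (4.31, -0.57 to 9.20). Over both alleles the largest were 5.11 points (-0.36 to 10.6) at Snrpn position 60005043, 4.60 (0.12 to 9.08) at 60005284 and -4.38 (-18.8 to 9.99) at 60005112. The Snrpn values by strain and over both alleles had mice 1 and 7 against 5 and 6. After adjustment for age they too set mouse 7 alone against mice 5 and 6.

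**Figure D3:**
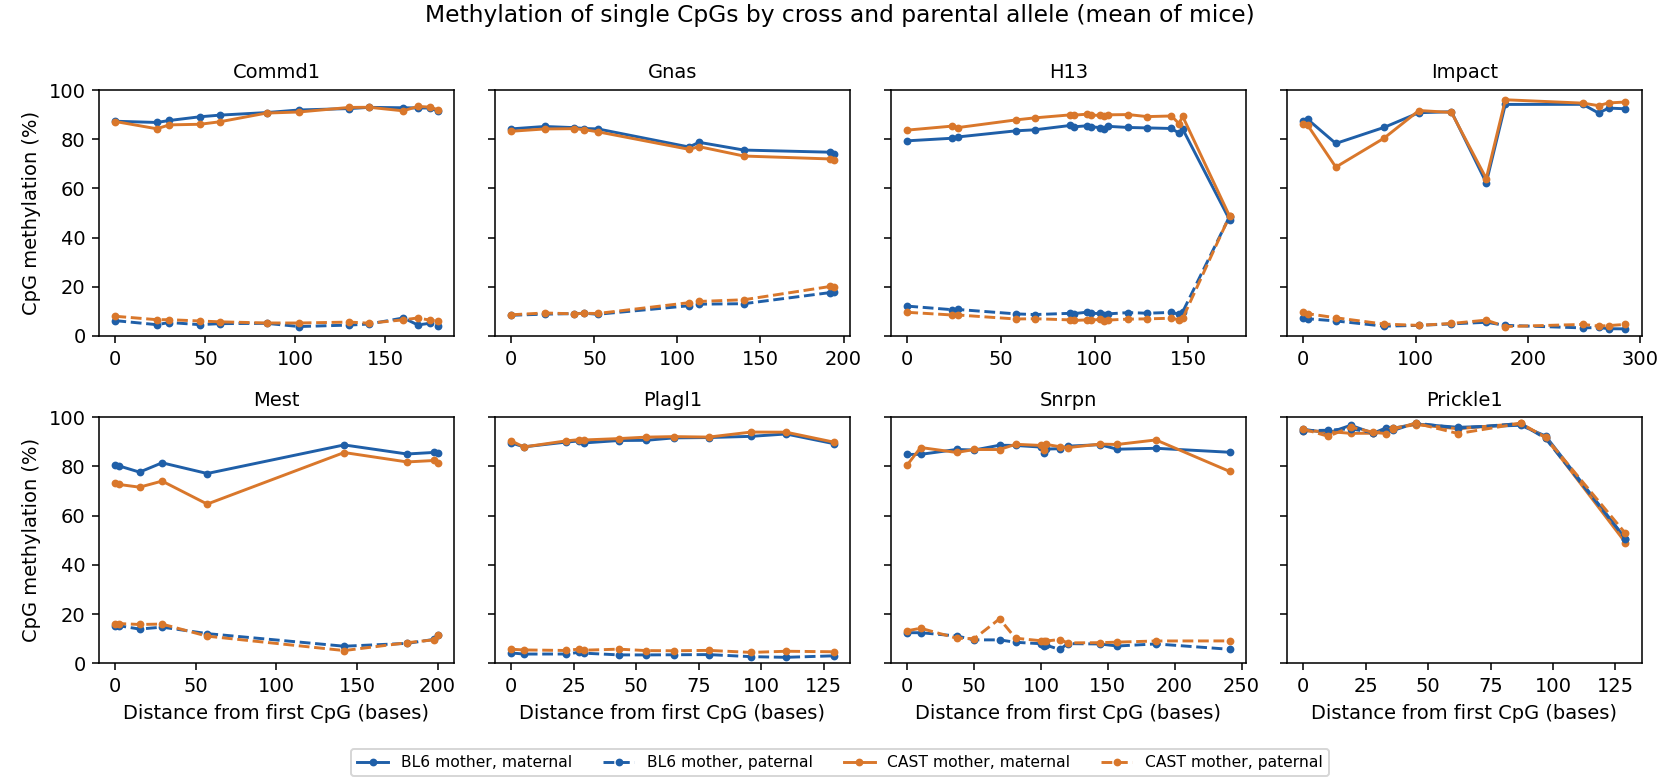
Methylation (%) of each CpG by its distance from the first CpG of the region (bases), for the 7 imprinted regions and Prickle1; blue is BL6 mother and orange CAST mother, solid lines the maternal and dashed lines the paternal allele, points the means of mice. The lines of the crosses lie up to 12.4 points apart on the maternal Mest allele and at most 3.05 apart on the Commd1 and Gnas alleles, and the last H13 CpG brings the alleles to 47.3 to 48.8%. The means are not adjusted for age, and the BL6 mother Mest points are of 2 old mice.

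The share of calls on each genome departed from 50% by strain in 4 regions and by parent in 4. If both alleles were read equally, genome 1 would hold 50% of a region's calls in both crosses. An excess of genome 1 in both crosses follows the strain; one that turns round with the cross follows the parent. Each was tested in 11 regions with limma, and each passed in 4 (36.4%; 4 at an unadjusted p under 0.05 in each).

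Klf4 had the largest strain imbalance. Genome 1 took 66.1, 68.7, 66.8 and 69.0% of its calls in mice 1, 2, 7 and 8 (BL6 mother), and 65.3, 66.9, 72.8 and 66.8% in mice 3, 4, 5 and 6 (CAST mother). The share was above 50% in 24 of 24 and 23 of 23 libraries. The excess over 50% was 17.8 points (15.8 to 19.8, adjusted p 3.5e-06), between 17.0 and 18.2 when any 1 mouse was left out, and 17.1 without the prefrontal cortex library of mouse 5. Snrpn had 55.2 ± 7.79% with a BL6 mother and 59.6 ± 2.80% with a CAST mother (n = 4 each), an excess of 7.40 points (3.66 to 11.2, adjusted p 0.0145). It lost the call without mouse 1 (adjusted p 0.0509) and without mouse 5 (0.0576). Gnas and Prickle1 leaned to genome 2 by small amounts, -1.20 points (-2.02 to -0.38) and -2.42 points (-4.06 to -0.79), both with an adjusted p of 0.0309. Each of these 2 calls was lost when any of 7 of the 8 mice was left out, with adjusted p up to 0.143 at Gnas and 0.10 at Prickle1. With a minimum of 500 calls in place of 100, Klf4 alone passed by strain, and Snrpn had 6.25 points (adjusted p 0.0887).

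Commd1/Zrsr1 showed the largest imbalance by parent, with more calls on the maternal, methylated allele. Genome 1, there maternal, took 57.1, 59.4, 58.5 and 55.5% of the calls in mice 1, 2, 7 and 8 (BL6 mother). In mice 3, 4, 5 and 6 (CAST mother), where genome 1 was paternal, it took 47.6, 41.9, 35.9 and 43.8%. The crosses did not overlap. The maternal share exceeded 50% by 7.66 points (4.91 to 10.4, adjusted p 0.00452), and by 6.84 points without the prefrontal cortex library of mouse 5.

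Plagl1, H13/Mcts2 and Gnas leaned the other way, to the paternal, unmethylated allele. Genome 1 held 45.9 ± 0.79% of Plagl1 calls with a BL6 mother and 53.0 ± 2.46% with a CAST mother (n = 4 each), 48 ± 1.56% and 53.7 ± 2.27% of H13/Mcts2 calls, and 47.1 ± 0.61% and 50.5 ± 0.46% of Gnas calls. The maternal share departed from 50% by -3.55 points (-5.15 to -1.96, adjusted p 0.00765) at Plagl1, -2.88 (-4.64 to -1.11, 0.0187) at H13/Mcts2 and -1.66 (-2.48 to -0.84, 0.00856) at Gnas. In each of the 3 regions the crosses did not overlap. They overlapped in every tested region that did not pass by parent, so overlap and test split the regions alike, from the same values. The H13/Mcts2 call was lost without mouse 1, 2 or 6 (adjusted p up to 0.0664). All 4 calls by parent were lost with a minimum of 20 calls per region and library in place of 100, when 13 regions were tested (adjusted p 0.0527 to 0.0968). The values were then 6.57 points at Commd1/Zrsr1, -4.46 at Plagl1, -2.88 at H13/Mcts2 and -2.68 at Gnas. The region that passed then was the unnamed one of chromosome 8, all of whose counted calls lay on the maternal allele. Dlk1-Dio3, at -4.55 points (-16.8 to 7.71), passed by parent without mouse 8, at -9.90 points (adjusted p 0.0150). Impact, Mest and the controls Klf4, Prickle1 and Sox2ot did not pass by parent, with values between -0.17 and 1.30 points, and nor did Snrpn at -2.19 (-5.93 to 1.56). The level of a region was computed within each allele, so these shares do not weight it. They do bear on which CpGs and libraries reach the minimum of 50 calls on an allele. Klf4 in mouse 8 had 6 libraries with a value on genome 1 and 3 on genome 2. The effect on the levels was not tested.

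**Figure D4:**
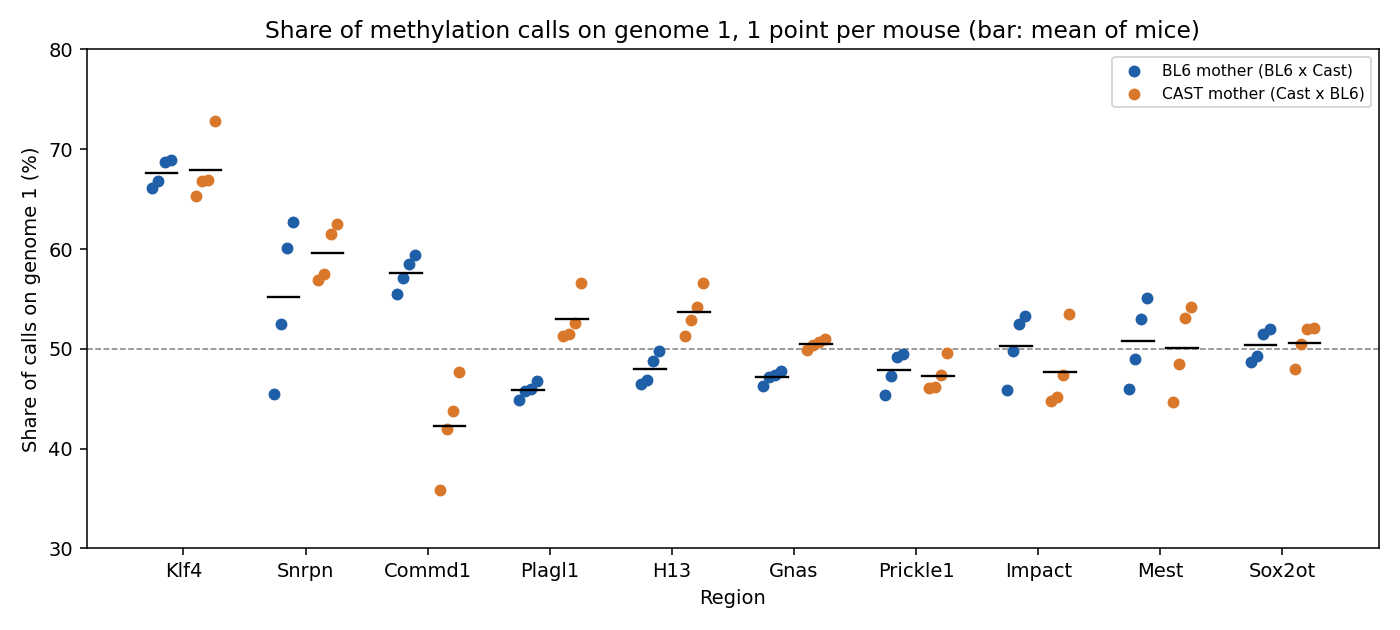
Share of calls on genome 1 (%) in 10 regions, with 1 point per mouse (mean over its libraries), BL6 mother left and CAST mother right, bars at the means and a dashed line at 50%. Klf4 lies between 65.3 and 72.8% in both crosses, while Commd1 lies above 50% with a BL6 mother and below it with a CAST mother.

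The paternally methylated Dlk1-Dio3 region was read with calls pooled over CpGs and tissues, and was not tested. Its paternal allele had 86.7, 92.1, 77.0 and 66.5% in mice 1, 2, 7 and 8 (BL6 mother), against 92.4, 95.9, 73.0 and 93.7% in mice 3, 4, 5 and 6 (CAST mother). The 981 paternal calls of mouse 5 include 220 from its prefrontal cortex library, where all calls lay on genome 1. The value of mouse 5 without that library was not computed. The maternal allele had 12.3, 16.4, 13.9 and 57.7%, against 9.83, 11.0, 12.8 and 10.7%. The paternal allele was the higher in 8 of 8 mice, which is genome 2 with a BL6 mother and genome 1 with a CAST mother. The gap was smallest in mouse 8, with a maternal level of 57.7% (exact Clopper-Pearson 95% interval 50.4 to 64.8%, counting error only). Igf2-H19 had 308 maternal and 350 paternal calls with a BL6 mother, and 431 and 363 with a CAST mother. Its paternal levels ran from 27.7 to 91.7% in BL6 x Cast mice and from 71.6 to 92.9% in Cast x BL6 mice, and its maternal levels from 0 to 24.3% and from 9.33 to 45.6%. The maternal 0 of 35 calls in mouse 8 allows up to 10.0% (upper bound of the same kind of interval). Mrpl10, Muc20, Igf2r and an unnamed region of chromosome 8 had 88, 38, 60 and 320 calls over all libraries and were not compared.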

How the data were processed

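IMPLICON libraries of genomic DNA were analysed from the deposited table of the 48 lane 7651 libraries; the 24 libraries of lane 7950 were not used here. The deposited values are percent methylation per CpG and genome, and the deposited counts of calls behind them; multiplied together they lay within 0.000266 of whole calls. Build GRCm38 was used with Bismark 0.14.4, Trim Galore 0.6.6 and bcl2fastq 2.20, per the submitters' processing notes. How reads were split by genome, filtered or freed of PCR copies is not given in the sources used here; without molecular identifiers, intervals on calls cover counting error only. No label says which strain is genome 1; BL6 was assumed.

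CpGs needed 50 calls on the allele in a library, and regions 2 mice per cross. From maternal minus paternal values within a mouse, parental origin is the mean of the crosses, and strain is their difference divided by 2. Fits used limma 3.58.1 in R 4.3.3 with age as covariate, two-sided, Benjamini-Hochberg adjustment over all rows of a contrast and a threshold of 0.05. Single values also had an exact permutation test over mice. edgeR 4.0.16 on methylated and unmethylated counts was an alternative. Shares of calls needed 100 calls per region and library. The fits recovered known differences in simulated data. There every mouse had a value in every region, the spread between mice was capped, and the planted differences exceeded every cross and strain difference of the mouse means here. The simulation does not show what size of difference could be detected in these data. Every tested region is named; by tissue, the 2 largest differences; for CpGs, the 3 largest per contrast; prefrontal cortex Klf4 and other tissue values outside this rule were named after their values were seen.

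A mouse's number marks the same animal in every tissue, so its libraries are paired; their deviations from group means correlated between -0.895 and 0.972 over 115 pairs of libraries, with a median of 0.33. Alternatives covered the coverage minimum, scale, age term, pooling, tissues, end CpGs, single libraries and single mice. The members and lists were chosen with earlier results of these data known.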

Additional observations from a re-analysis of the deposited data

Results flagged for a closer look

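In groups of 4 mice, a mouse was singled out where its gap to the nearest other mouse exceeded Dixon's critical share of the range of its cross. Of 52 groups examined (levels of region-alleles and shares of calls), 4 held such a mouse, and chance alone marks about 1 in 20 groups, or 2.6 here. Mouse 8 (BL6 mother, young), the shallowest mouse, was low on the maternal Commd1/Zrsr1 allele at 84.2% and high on the maternal Prickle1 allele at 97.3%, where it had 1 library. Its Prickle1 level lacks the last CpG of the region, which lowers the level of the mice that have it. Mouse 5 (CAST mother, young) was high on the paternal H13/Mcts2 allele at 12.3% and on the paternal Plagl1 allele at 13.7%. Both values of mouse 5 include its prefrontal cortex library, with 29.4% and 62.8%.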

How the results depend on the processing

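For the mouse means, 0 region-alleles passed for the cross and 0 regions for the strain under each of 23 alternatives (0 to 2 at an unadjusted p under 0.05), and 0 passed over both alleles under each of 22. At a minimum of 200 calls, H13/Mcts2 came nearest to the threshold. Its maternal cross difference was -4.28 points (limma adjusted p 0.0798) and its strain difference -3.14 points (limma adjusted p 0.0525). Uncalled values changed sign in 57 of 479 refits for the cross and in 27 of 219 for the strain. The parental count fell to 4 of 7 regions testable at a minimum of 200 calls, because fewer regions remained. By tissue, leaving out 1 mouse gave 0 to 1 calls for the cross and 0 to 1 for the strain. A minimum of 200 calls gave 1 of 15 strain calls (Gnas in nucleus accumbens, 1.86 points), and the paired fit with the mouse as a replicate block 1 of 52 (Klf4 in prefrontal cortex, 1.65 points); the block changed no other call. Of the shares of calls, 1 passed by strain at a minimum of 500 calls and 1 to 4 with 1 mouse left out; 1 passed by parent at a minimum of 20 calls (the unnamed region of chromosome 8; 13 regions tested) and 3 to 5 with 1 mouse left out; the cause was not tested. With calls pooled per mouse before the percent, the maternal Plagl1 and Mest differences became -11.5 and -7.98 points. The edgeR fit by tissue, the shares without single mice or the mouse 5 prefrontal cortex library, and the mouse means without both were chosen after seeing the data. Old and young mice alone gave values with no test. Depth limits Mest, Snrpn and mouse 8 most.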
